A study of Arvicanthis niloticus with 28 samples.

Results

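Transcripts of rod and cone photoreceptors were measured in RNA of the washed retinal vasculature of 28 Nile rats (Arvicanthis niloticus), a rodent that is active by day, with 1 library per rat. The 30 listed genes were chosen by name for their place in phototransduction and in the photoreceptor outer segment. Of these, 29 had values among the 18970 genes analysed: 10 of rods, 10 of cones, 8 that both cell types use, and Gnb1, which most cells express. The remaining gene, Rom1, was not analysed here. All rats were labelled as wild type and untreated, and the study fed some rats a high-fiber and others a high-caloric diet that the labels do not assign to single animals. Rats with 17 to 18 acellular capillaries per mm2 formed the pre-dropout group (n = 4, all male, random blood glucose of 57.4 to 443 mg/dL), and rats below 16 per mm2 formed the normal group (n = 24, 8 males and 16 females, 52.0 to 422 mg/dL). Blood glucose was above 200 mg/dL in 5 rats, of which 2 were pre-dropout. The study loosened the vessels by osmotic lysis and washed the neurons off with a pipet, so a neuronal transcript in these libraries was one that stayed with the vessels. In such bulk RNA, fewer cells and less RNA per cell cannot be told apart.

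In both kinds of photoreceptor, light changes the shape of an opsin, which activates the G protein transducin. Transducin relieves the phosphodiesterase PDE6 of its inhibitory subunit, cyclic GMP falls, and the cyclic nucleotide gated channel of the outer segment closes. Arrestin then ends the opsin's signal. Rods and cones build most of these parts from separate genes, such as Gnat1 and Gnat2 for the alpha subunit of transducin, so the same step can be compared between the cell types. Rods serve dim light and cones daylight and color, and most mammalian retinas hold many more rods than cones, while day-active rodents are known for a larger share of cones.

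Total counts per library lay between 153111 and 10029207, with a median of 3781776. At equal depth (153111 counts drawn from each library) 6188 to 11838 genes were detected, and 6 normal rats fell under 8000 (T399F, T420F, T424M, T425M, T430F and T448M). Each library held at least 1 count for 10 to 29 of the 29 genes, with a median of 23.5. That number followed the number of all genes detected (Spearman rho = 0.72, Pearson r = 0.72, n = 28 libraries) and not the total count (rho = 0.11, r = 0.022). Vessel markers were far more abundant than the photoreceptor genes: 12 endothelial markers summed to 12105 to 54719 TPM (transcripts per 1000000, a level scaled by transcript length, with the same total in each library).

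Photoreceptor transcripts were present in every library, at levels that differed widely between rats. The 28 rod, cone and shared genes together made up 0.0259% to 1.24% of all TPM, with a median of 0.147%. Summed over the 10 rod genes, the lowest level was 50.4 TPM in rat T430F, the median 573 TPM and the highest 4187 TPM in rat T370M, an 83.0-fold range. The 10 cone genes summed to 0.372 TPM in rat T420F, to a median of 317 TPM and to 2610 TPM in rat T370M. The 8 shared genes summed to 120 TPM in rat T447M, to a median of 540 TPM and to 5628 TPM in rat T370M. Rat T370M, a normal male with a density of 12.6 per mm2 and 226 mg/dL of glucose, thus stood apart from the others and held the highest value of 22 of the 29 genes. Without it the highest sums were 2116 TPM of rod and 1231 TPM of cone genes, both in rat T414F, and 3052 TPM of shared genes in rat T397F. The results below that rest on this library are given with and without it.

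**Figure D1:**
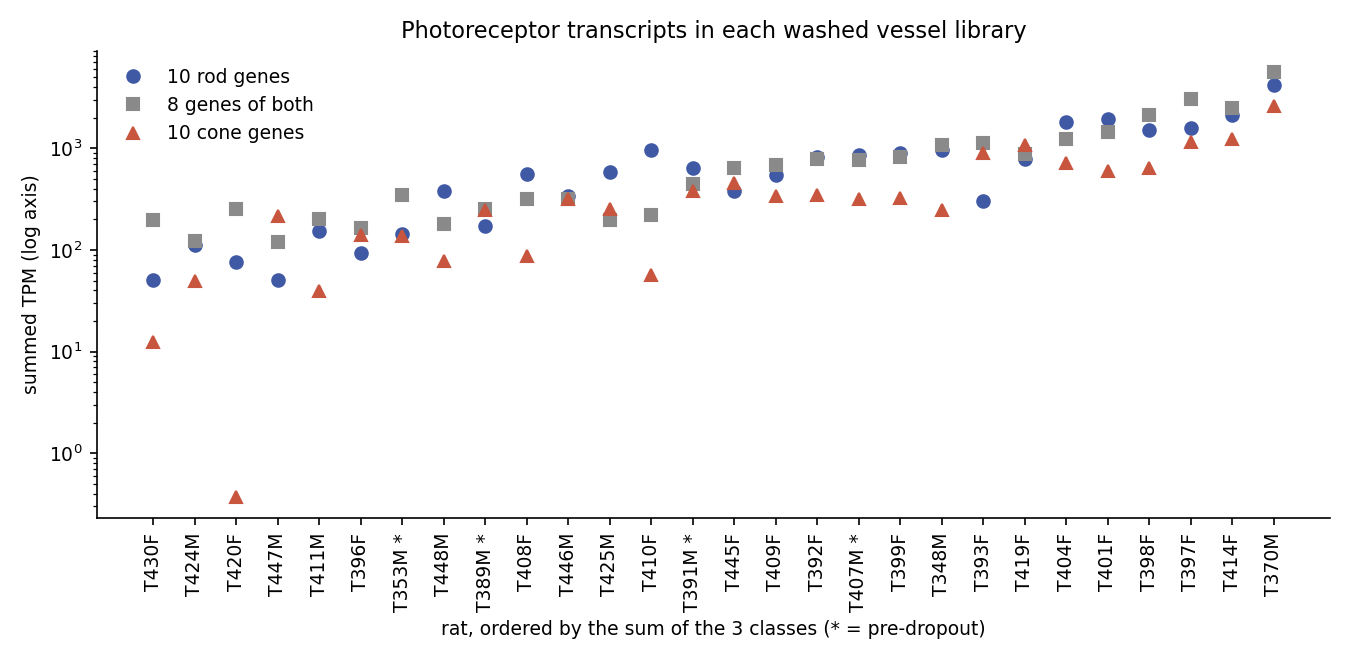
Summed TPM (log axis) of 10 rod genes (circles), 8 genes of both photoreceptors (squares) and 10 cone genes (triangles) in each of 28 rats, ordered by the sum of the 3 classes, with the 4 pre-dropout rats starred. Rat T370M is highest in all 3 classes, and the cone genes of rat T420F summed to 0.372 TPM.

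Among the rod genes, Gngt1, the gamma subunit of rod transducin, was the most abundant per length. In normal rats Gngt1 ranged from 0 through a median of 391.7 TPM to 2707 TPM, and the pre-dropout rats T353M, T389M, T391M and T407M had 89.6, 94.2, 403.9 and 581 TPM. Sag, the rod arrestin, had a count in every library and ranged in normal rats from 3.36 through 90.3 to 880 TPM, with 14.3, 29.4, 73.6 and 111 TPM in the same 4 pre-dropout rats. All 4 lay inside the range of the normal rats for both genes. Cnga1, the alpha subunit of the rod channel, ranged from 0 through 67.1 to 318 TPM in normal rats and was 24.8, 24.98, 114 and 124 TPM in the pre-dropout rats, again inside the normal range. The remaining rod genes were much lower per length, with medians over 28 rats of 8.601 TPM for Gnat1 (rod transducin alpha), 6.26 TPM for Pde6b and 1.82 TPM for Pde6a (the catalytic subunits of rod PDE6), and 4.06 TPM for Pde6g (its inhibitory subunit). Medians were 3.07 TPM for Nr2e3, a nuclear receptor of rods, and 1.92 TPM for Cngb1, the beta subunit of the rod channel. Nrl, the transcription factor that sets rod fate, had no count in 17 of 28 libraries and reached at most 8.10 TPM, in rat T404F.

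Among the cone genes, Gnb3, the beta subunit of cone transducin that ON bipolar cells also use, was the most abundant. In normal rats Gnb3 ranged from 0 through 163 to 763 TPM, and rats T353M, T389M, T391M and T407M had 81.5, 172, 136 and 147 TPM. Opn1mw, the middle-wave cone opsin, ranged from 0 through 38.1 to 658 TPM in normal rats and was 10.9, 47.5, 27.5 and 21.7 TPM in the pre-dropout rats. Its highest value, in rat T370M, was followed by 204 TPM in rat T414F. Pde6h, the inhibitory subunit of cone PDE6, ranged from 0 through 20.8 to 197 TPM in normal rats, with 24.5, 0.663, 17.5 and 7.31 TPM in the pre-dropout rats. None of the 4 pre-dropout rats left the normal range for these cone genes. Medians over 28 rats were 16.6 TPM for Arr3 (cone arrestin), 16.4 TPM for Gnat2 (cone transducin alpha) and 13.98 TPM for Cngb3 (cone channel beta), but only 0.48 TPM for Gngt2 (cone transducin gamma) and 0.46 TPM for Pde6c (cone PDE6 catalytic subunit). Opn1sw, the short-wave opsin, had no count in 16 libraries and reached 59.5 TPM in rat T409F. Cnga3, the alpha subunit of the cone channel, had no count in 22 libraries and reached 40.7 TPM in rat T370M. A count of 0 allows up to 3 counts of a library's total by counting error alone, which is 0.299 to 19.6 CPM (counts per 1000000 counts, not scaled by length) over the 28 libraries.

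Of the genes that rods and cones share, Pdc and Crx were the most abundant. Pdc (phosducin, which binds the beta and gamma subunits of transducin) ranged in normal rats from 0 through 179 to 2102 TPM and was 164, 72.0, 171 and 371 TPM in rats T353M, T389M, T391M and T407M. Crx, the homeobox factor of photoreceptors, ranged from 0 through 121 to 1208 TPM in normal rats, and the 4 pre-dropout values of 106, 123, 135 and 109 TPM lay close together near the normal median. Medians over 28 rats were 58.0 TPM for Guca1a and 8.06 TPM for Guca1b, which activate guanylate cyclase, 43.7 TPM for Prph2, a protein of the disc rim, and 27.6 TPM for recoverin (Rcvrn). They were 1.48 TPM for Abca4, the retinoid transporter of the discs, and 1.30 TPM for Rp1, which binds the axoneme. Gnb1, the beta subunit of rod transducin and of G proteins in many other cells, behaved differently: it had a count in every library, ranged only from 39.2 through 191 to 351 TPM, and had a coefficient of variation of 0.413 over the rats, against 0.944 to 2.46 for the other 28 genes. Besides Gnb1, only Gnat1 and Sag had a count in all 28 libraries.

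Rod genes exceeded cone genes by summed TPM in 22 of 28 rats, with a median ratio of 2.30. The ratio ranged from 0.237 in rat T447M to 206 in rat T420F, where the 10 cone genes had 4 counts in all. The cone sum was the larger in the normal rats T447M, T393F (0.342), T396F (0.665), T419F (0.729) and T445F (0.828) and in the pre-dropout rat T389M (0.691). The sums rested on a single gene each, as Gngt1 made up a median of 65.3% of the rod sum and Gnb3 50.1% of the cone sum. Without Gngt1 and Gnb3 the median ratio was 1.14, and 17 of the 26 rats with a ratio lay above 1. In rats T425M and T430F all cone genes other than Gnb3 were at 0 TPM, so no ratio was defined. Weighing all genes alike, as geometric means of TPM + 1, gave a median of 1.06 with 15 rats above 1. Limiting the sums to the paired genes below dropped Gnb3, the cone opsins, Nrl and Nr2e3 but kept Gngt1. The median ratio was then 6.39. All 26 rats with such a ratio lay above 1 (lowest 1.44), and rats T425M and T430F again had rod but no cone transcript to divide by. By expected counts, which are not scaled by length, the median was 2.41 and all 28 rats lay above 1. That count leaned on Gnat1, a gene of long implied length whose counts are taken up below. Gnat1 gave 4306 of 5665 rod counts in rat T393F, against 3599 cone counts. In rat T419F it gave 2296 of 3778, against 3243 cone counts. In the 22 libraries with at least 8000 genes at equal depth the median TPM ratio was 1.65. The ratio therefore gave no single figure for rods against cones in these libraries, and it measures transcripts left on vessels, not numbers of cells.

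The rod to cone ratio of summed TPM did not separate the label groups. It was 1.06, 0.691, 1.70 and 2.69 in the pre-dropout rats T353M, T389M, T391M and T407M, all within the normal range, and the medians were 1.38 (n = 4) and 2.32 (n = 24). Its median was 1.60 in the 5 rats above 200 mg/dL (range 0.691 to 2.32) and 2.34 in the 23 others, whose range of 0.237 to 206 spans them. Normal males (n = 8) and normal females (n = 16) had medians of 2.30 and 2.33. The log2 ratio had a Spearman rho of -0.17 and a Pearson r of -0.21 with density, and a rho of -0.10 and an r of -0.19 with glucose, over 28 rats.

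Paired genes of the same function gave opposite answers from one step of the cascade to the next. Sag exceeded Arr3 in TPM in 28 of 28 rats, with a median ratio of 3.52 in the 22 rats where both were above 0, and Cnga1 exceeded Cnga3 in 26 rats and never fell below it. Gngt1 exceeded Gngt2 in 25 rats, with a median ratio of 94.6 over the 16 rats with both. In the other direction, Pde6h exceeded Pde6g in 18 rats against 5, with a median rod to cone ratio of 0.382 (14 rats), and Cngb3 exceeded Cngb1 in 17 rats against 6, with a median ratio of 0.076 (17 rats). Among the catalytic subunits of PDE6, Pde6b exceeded Pde6c in 15 rats against 5 and Pde6a exceeded it in 15 against 8.

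For 3 of these pairs the side with more rats changed with the scale. Pde6a, higher than Pde6c in 15 rats against 8 by TPM (median ratio 1.20), was higher in 11 against 12 by counts (median ratio 0.860), each ratio over the 13 rats with both. Gnat2 exceeded Gnat1 in TPM in 15 of 28 rats, but Gnat1 had more counts than Gnat2 in all 28, with median counts of 484 and 44. The transcript length implied by count over TPM was 9.52 times that of the median gene for Gnat1 and 0.781 times for Gnat2, a 12.2-fold difference. Gnat1 had 970 counts in rat T430F and 870 in rat T424M, where Gngt1, Pdc and Arr3 had 0 and Sag had 40 and 540. Whether all counts of Gnat1 came from rod transcripts was not tested. Cngb1 had an implied length 11.04 times that of Cngb3, and by counts it was the higher in 13 rats and the lower in 10. Its median count ratio to Cngb3, over rats with both, was still below 1, at 0.845. Gngt1, at the top in TPM, had an implied length of only 0.108 times the median gene. Implied lengths were nearly the same in every library (median SD of 0.0582 on the log2 scale over 11103 genes), so comparisons of 1 gene between rats did not depend on them. Between the opsins, Opn1mw exceeded Opn1sw in 20 rats against 3, with a median ratio of 1.57 in the 11 rats with both and of 19.6 in rat T370M.

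**Figure D2:**
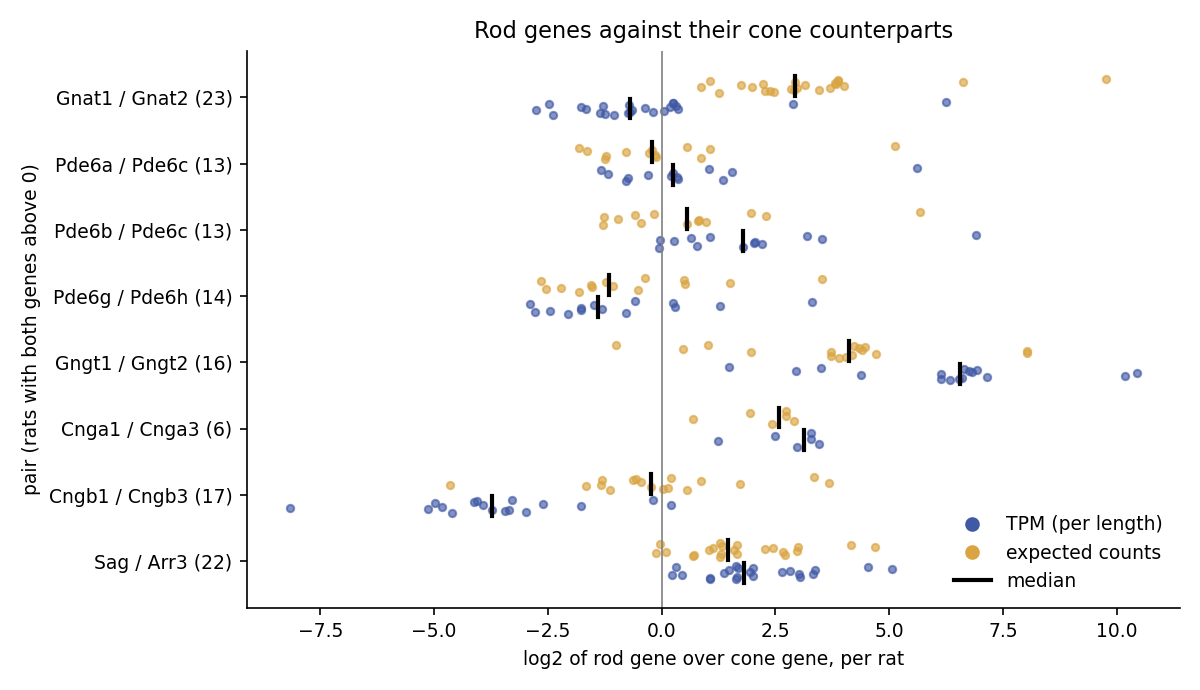
Log2 ratio of each rod gene to its cone counterpart in every rat where both were above 0 (number in brackets), by TPM (blue) and by expected counts (yellow), with black bars at the medians. Gnat1 over Gnat2 changed sides between the scales, with a median ratio of 0.621 by TPM and 7.67 by counts, while Sag over Arr3 stayed above 1 by TPM in every rat shown.

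Rod and cone genes rose and fell together from rat to rat. The mean log2 CPM of the rod genes and that of the cone genes had a Spearman rho of 0.89 and a Pearson r of 0.91 over 28 libraries, and a rho of 0.88 and an r of 0.89 without rat T370M. Each gene was also set against the mean of the other rod genes and that of the other cone genes. Rod genes had a median rho of 0.69 with the rod mean and 0.70 with the cone mean, and cone genes had 0.70 and 0.69, so the medians were nearly the same for either mean. Shared genes had 0.80 and 0.70. Over all 13800 genes tested the medians were 0.20 and 0.21. All libraries share the same processing and these values share depth within a library, so they describe the set and carry no p.

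Within the set, Arr3 (0.92), Gnat1 (0.89) and Abca4 (0.89) had the highest rho with the cone mean, although Gnat1 is a rod gene, and Rp1 (0.91) and Arr3 (0.88) had the highest with the rod mean. Cnga1 (0.45), Gngt2 (0.48) and Pde6g (0.55) followed the rod mean least among the 28 genes. Gnb1 had a rho of -0.24 with the rod mean and -0.23 with the cone mean, and so did not follow the photoreceptor genes. Outside the set, a list of 34 other photoreceptor genes had a median rho of 0.59 with the rod mean and 0.60 with the cone mean, against 0.39 and 0.50 for 12 bipolar cell markers and 0.49 and 0.36 for 14 markers of Müller glia and astrocytes. Single genes of the 34 had a rho of -0.47 to 0.83 with the rod mean. The 4 most abundant of the 34 were Prom1, a protein of the outer segment membrane (median 186 TPM), Rbp3, the retinoid-binding protein between photoreceptors and pigment epithelium (116 TPM), Gnb5 (68.9 TPM), which partners the transducin brake RGS9, and the transcription factor Neurod1 (37.5 TPM). Prom1 had a count in all 28 libraries and at least 97.1 TPM in each. Its coefficient of variation of 0.33 was below the 0.413 of Gnb1, so its level did not show the wide spread of the photoreceptor genes. By Spearman rho over the 28 libraries, the 5 genes outside the set closest to the rod mean were Fam57b (0.83), Tulp1 (0.83), Fam161a (0.83), Gas7 (0.83) and Aipl1 (0.82). Those closest to the cone mean were Khdrbs3 (0.88), Rtbdn (0.85), Fam57b (0.84), Cpt1c (0.84) and Fam214a (0.84).

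Vessel markers ran the other way. The 12 endothelial markers had a median rho of -0.58 with the rod mean and -0.66 with the cone mean, and 9 pericyte markers had -0.50 and -0.61. By summed TPM, rod genes had a rho of -0.57 and an r of -0.60 with the endothelial sum, and cone genes a rho of -0.72 and an r of -0.63 (28 rats). The r without the 2 rats farthest from the median endothelial sum was -0.59 for rod and -0.62 for cone genes. Rod sums also had a rho of 0.53 and cone sums of 0.71 with the number of genes detected at equal depth (r of 0.55 and 0.68).

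**Figure D3:**
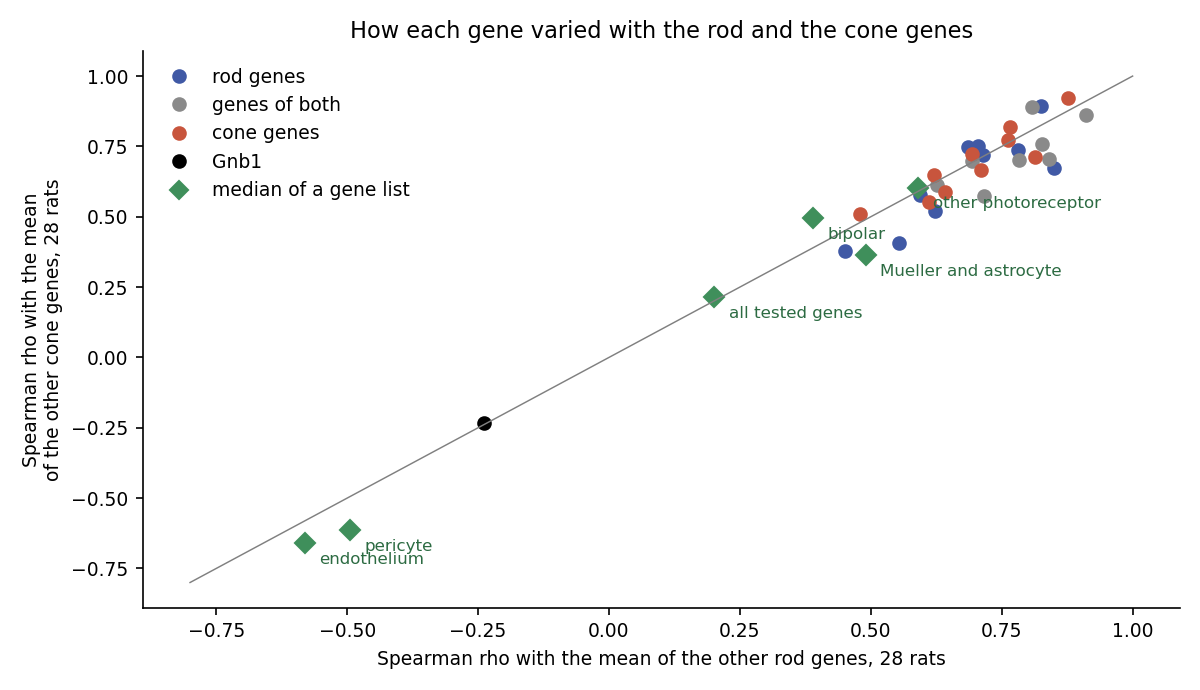
Spearman rho of each gene with the mean log2 CPM of the other rod genes (horizontal axis) and of the other cone genes (vertical axis) over 28 rats, with the medians of 5 marker lists and of all 13800 tested genes as diamonds. The 28 rod, shared and cone genes lie at the upper right near the line of equality, Gnb1 lies below 0 on both axes, and endothelial and pericyte markers lie at the lower left.

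Between pre-dropout and normal rats, no photoreceptor gene was called different. The call needed an adjusted p under 0.05 and more than a 2-fold change, and edgeR called 0 of 13800 genes (0%), among them 0 of the 29, of which 0 had an unadjusted p under 0.05. DESeq2, limma-voom and limma on log2(TPM + 1) also called 0 of the 29, with 2, 0 and 0 at an unadjusted p under 0.05. By edgeR, 26 of the 29 had a fitted level below that of normal rats, and the median of their log2 fold changes was -0.80 against -0.13 over all genes, but by limma-voom 9 of 29 lay below (median 0.32 against 0.24 over all genes). The direction of the set thus depended on the method. It also depended on sex and on rat T370M together, since all pre-dropout rats were male and 16 of 24 normal rats were female. This fit had no sex term. With sex as a covariate 25 of 29 lay below (median -0.86), among males alone 22 of the 25 tested (median -0.91), and without T370M but with both sexes pooled 23 of 29 (median -0.43). With both changes the direction turned: among males without T370M, 17 of the 20 tested lay above the normal rats (median 0.52 against -0.013 over all genes), and with sex as a covariate and without T370M 24 of 29 (median 0.70). In that last fit 6 of the 29 had an unadjusted p under 0.05, against 6.90% of all genes, and 0 were called. By summed TPM, the medians of the pre-dropout rats (rod 406, shared 396.99 and cone 283 TPM) lay above those of the 8 normal males (357, 200.05 and 230.5 TPM) and below those of the 16 normal females (802, 800.3 and 405 TPM). Every library under 8000 genes at equal depth was of a normal rat. The males T424M, T425M and T448M among them stayed in the fits that turned. In libraries of at least 8000 genes, with T370M and no sex term, edgeR called 0 of the 29. In that fit 2 had an unadjusted p under 0.05, against 5.12% of all genes: Prph2 (-2.54 ± 0.98) and Nr2e3 (-3.61 ± 1.64). The direction therefore cannot be told from these rats. The biological coefficient of variation was 1.32 in the fit over all 28 rats, and a count of 0 calls at that spread does not show equal levels. Beside these values, all 12 endothelial markers had a fitted level above that of normal rats (median log2 fold change 0.22) and 8 of 9 pericyte markers a level below it, none of them called, against 5 of 12 and 0 of 9 with sex as a covariate and without T370M. Their part in the result was not tested.

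Nr2e3 had 0, 0.223, 2.80 and 0 TPM in the pre-dropout rats T353M, T389M, T391M and T407M, each below the normal median of 5.97 TPM, while normal rats ranged from 0 to 36.3 TPM. The median was 0.51 TPM in normal males and 10.7 TPM in normal females, so T391M lay above the median of its own sex. Its log2 fold change was -3.60 ± 2.02 (SE; edgeR quasi-likelihood p = 0.0813, adjusted p = 1). Sag, with the values given above, had a log2 fold change of -1.17 ± 0.84 (edgeR p = 0.172, adjusted p = 1). Among the cone genes, Gngt2 had 0, 0, 3.73 and 0.414 TPM in the same 4 rats against a normal median of 2.55 TPM (-2.71 ± 2.12, edgeR p = 0.209). Gnat2 had 7.21, 0.993, 17.9 and 32.6 TPM against 17.3 TPM (-1.42 ± 1.38, edgeR p = 0.312), with 2 rats above that median and 2 below. The smallest p of the 29 genes belonged to the shared gene Prph2, named here after its values were seen. Prph2 had 7.52, 25.9, 36.6 and 3.72 TPM in the pre-dropout rats, each below the normal median of 63.7 TPM, but 2 of them above the median of 16.8 TPM in normal males (66.2 TPM in females). Its log2 fold change was -2.30 ± 1.23 (edgeR p = 0.0688, adjusted p = 1), and -0.53 ± 1.09 with sex as a covariate and without T370M (edgeR p = 0.631). In that fit Sag was at -0.28 ± 0.79, Nr2e3 at -1.47 ± 1.89, Gngt2 at -2.71 ± 2.32 and Gnat2 at 1.31 ± 1.32. For each of these 5 genes the normal range covered all 4 rats. Of the 34 other photoreceptor genes, 29 had a fitted level below that of normal rats, 7 at an unadjusted p under 0.05 against 2.86% of all genes, and 0 were called. With sex as a covariate and without T370M, 18 of the 33 tested lay below. The 7 were Kcnv2, Rdh8, Rgs9bp, Rp1l1, Rxrg, Samd7 and Unc119, all near the floor. They had no count in 13 to 23 of the 28 libraries and at most 1.16 TPM in a pre-dropout rat (Unc119 in T391M).

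Within the 24 normal rats, where density ran from 5.90 to 14.5 per mm2, edgeR fitted a positive slope for 27 of the 29 genes, and none was called. The background was 0% of 13677 genes called. The median slope was 1.36 on the log2 scale per 5 acellular capillaries per mm2, with sex as a covariate, against 0.085 over all genes, and 24 of the 29 stayed positive without rat T370M, with a median of 0.63. DESeq2, limma-voom and limma on log2(TPM + 1) called 0 of the 29 and fitted 28, 26 and 25 positive slopes. Unadjusted p was under 0.05 for 2 of the 29, against 1.12% of all genes. These were Sag (slope 1.17 ± 0.56, edgeR p = 0.0423, adjusted p = 1) and Pde6b (3.04 ± 1.498, edgeR p = 0.0492, adjusted p = 1). Without rat T370M the slopes were 0.63 ± 0.52 for Sag (edgeR p = 0.231) and 2.51 ± 1.47 for Pde6b (edgeR p = 0.0969).

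The values behind these slopes overlapped across the density range. Sag ran from 3.36 through a median of 81.7 to 880 TPM in the 11 normal rats with at least 10 acellular capillaries per mm2, and from 3.57 through 106 to 328 TPM in the 13 with fewer, so its median was lower at higher density although the slope was positive. Pde6b was at 0 in 3 of the 11 rats and in 7 of the 13, with medians of 7.24 and 0 TPM and highest values of 71.4 and 59.3 TPM. The cone genes of smallest p were Arr3 (slope 2.45 ± 1.29, edgeR p = 0.0650), with medians of 14.5 and 18.2 TPM, and Pde6c (2.72 ± 1.44, edgeR p = 0.0662), with medians of 0.874 and 0.055 TPM. Summed rod TPM had a Spearman rho of 0.29 and a Pearson r of 0.20 with density over the 24 rats, and cone TPM a rho of 0.20 and an r of 0.23. Leaving out the 2 rats farthest from the median density gave an r of 0.0042 for rod and of 0.092 for cone genes. In the same rats 11 of 12 endothelial markers and 9 of 9 pericyte markers had negative slopes, or 9 and 9 without T370M. Their part in the result was not tested.

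**Figure D4:**
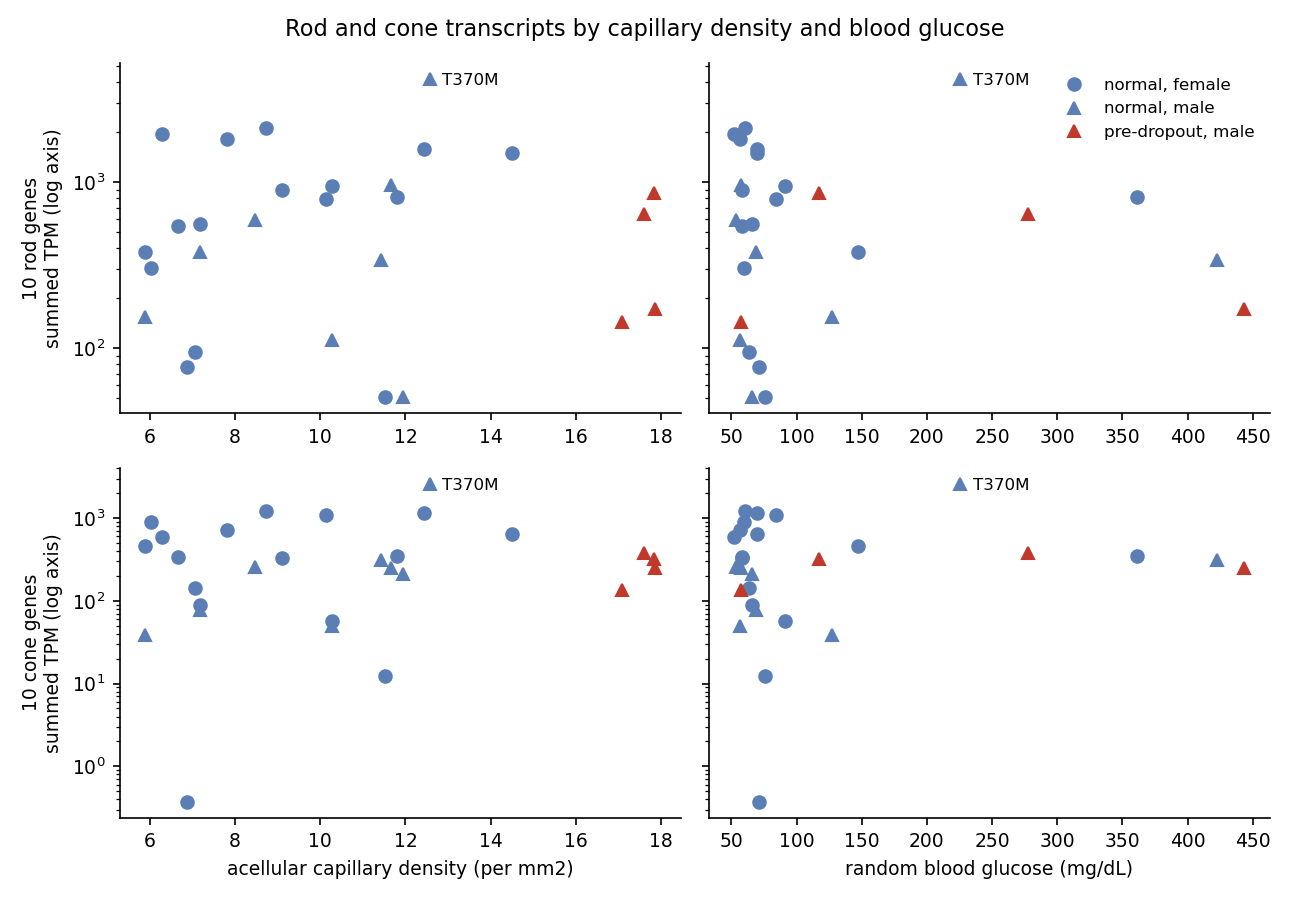
Summed TPM (log axis) of 10 rod genes (upper row) and 10 cone genes (lower row) against acellular capillary density (left) and random blood glucose (right) in 28 rats, 1 point per rat, with circles for females, triangles for males and red for the 4 pre-dropout rats. The pre-dropout rats lie inside the range of the normal rats, and rat T370M, at 226 mg/dL, is the highest in each panel.

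The direction of the slopes on blood glucose depended on rat T370M and on the libraries with few genes detected. Over 28 rats with sex as a covariate, edgeR fitted a positive slope for 25 of the 29 genes, with a median of 0.23 on the log2 scale per 100 mg/dL against 0.014 over all genes. None was called, none had an unadjusted p under 0.05, and the background was 0% of 13800 genes. DESeq2, limma-voom and limma on log2(TPM + 1) also called 0 of the 29, with 3, 1 and 1 at an unadjusted p under 0.05. Setting the 5 rats above 200 mg/dL against the others gave the largest number, 7 of 29 at an unadjusted p under 0.05 (against 5.55% of all genes) and 0 called, with 28 of 29 above the others (median log2 fold change 1.78). Without T370M that contrast had 14 above and 15 below (median -0.0040) and 1 at an unadjusted p under 0.05, Cnga3. On the continuous scale without T370M, 11 slopes were positive and 18 negative, with a median of -0.081, and in the 22 libraries with at least 8000 genes at equal depth, T370M among them, 10 were positive. By summed TPM, the rod genes had a rho of -0.11 (r of 0.0058) and the cone genes of -0.0027 (r of 0.14) with glucose over 28 rats. The r without the 2 rats farthest from the median glucose was 0.20 and 0.18.

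Opn1mw had the smallest p of the cone genes on glucose (slope 1.11 ± 0.69, edgeR p = 0.117, adjusted p = 1). All 5 rats above 200 mg/dL held it: T370M had 658 TPM, T389M 47.5, T391M 27.5, T392F 74.2 and T446M 47.9 TPM. In the 23 other rats Opn1mw ranged from 0 to 204 TPM with a median of 21.4 TPM and was at 0 in 6. Without rat T370M its slope was 0.55 ± 0.41 (edgeR p = 0.184). Cnga3 was above 0 only in T370M (40.7 TPM) and T391M (11.7 TPM) of the 5 rats and in 4 of the 23 others (2.40 ± 1.96, edgeR p = 0.228). Among the rod genes, Gnat1 had 70.0, 7.31, 20.5, 8.16 and 8.38 TPM in the rats T370M, T389M, T391M, T392F and T446M, and a median of 8.62 TPM in the others (0.27 ± 0.26, edgeR p = 0.295). Apart from T370M, these values lay inside the range of 1.73 to 50.1 TPM of the others. Pde6g had the only negative slope of the 4 (-0.70 ± 0.70, edgeR p = 0.326), with 47.5, 6.51, 2.37, 0 and 0 TPM in the same 5 rats.

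Between male and female normal rats, the direction by edgeR changed without rat T370M. Comparing 8 males with 16 females, edgeR called 3 of 12162 genes (0.0247%) and 0 of the 28 photoreceptor genes that passed the filter on low counts, of which 17 had a fitted level above that of females, with a median log2 fold change of 0.18 against -0.044 over all genes. None of the 28 had an unadjusted p under 0.05. Without T370M, 25 of 28 lay below females, with a median of -1.51 against -0.078 over all genes, 8 at an unadjusted p under 0.05 (against 7.97% of all genes) and 0 called. Of the 7 males and 16 females in that fit, T424M, T425M, T448M, T399F, T420F and T430F had under 8000 genes at equal depth. Without those libraries but with T370M, 0 of the 29 tested had an unadjusted p under 0.05 by edgeR, against 5.2% of all genes. With T370M and all normal rats, limma-voom put 24 of 28 below females, limma on log2(TPM + 1) 26 and DESeq2 16. DESeq2 called 37 of 12162 genes (0.304%), among them 1 of the 28, Pde6a, lower in males (log2 fold change -4.34 ± 1.12, adjusted p = 0.0395). By edgeR Pde6a was at -0.21 ± 1.23 with T370M (edgeR p = 0.865) and at -6.43 ± 1.63 without it (adjusted p = 0.127). T370M had 43.6 TPM of Pde6a. The 7 other males had at most 0.364 TPM, with 5 at 0, and females a median of 3.31 TPM. Why the methods differed was not tested. Summed rod TPM was 50.5 to 960 with a median of 338 in the 7 other males, and 50.4 to 2116 with a median of 802 in the 16 females. Summed cone TPM was 39.1 to 315 with a median of 213 in those males, and 0.372 to 1231 with a median of 405 in females, so the ranges overlapped for both classes. All 9 pericyte and all 12 endothelial markers had a fitted level above that of females, or 9 and 11 without T370M, and their part in the result was not tested.

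Of the genes named by p, Pde6c changed sign by edgeR without T370M, and Opn1sw, Gnat1 and Pde6g kept theirs. Opn1sw was above 0 in T370M alone among the 8 males, at 33.6 TPM, and in 9 of 16 females, at up to 59.5 TPM (log2 fold change -2.08 ± 1.60, edgeR p = 0.202, adjusted p = 0.995). Pde6c was at 0 in 6 of 8 males, at 0.874 TPM in one and at 74.5 TPM in T370M, and ranged from 0 through 3.69 to 23.003 TPM in females. Its log2 fold change was 1.06 ± 1.23 with T370M (edgeR p = 0.394) and -4.90 ± 1.70 without it (edgeR p = 0.00664, adjusted p = 0.249). Gnat1 ran from 1.73 through 5.17 to 8.38 TPM in the 7 other males and from 4.07 through 16.5 to 50.1 TPM in females. Its log2 fold change was -0.43 ± 0.48 with T370M (edgeR p = 0.374) and -1.66 ± 0.42 without it (edgeR p = 0.000311, adjusted p = 0.127). Pde6g kept its sign, at 1.78 ± 1.29 with T370M (edgeR p = 0.179) and 1.42 ± 1.38 without it, with 4 of 8 males and 8 of 16 females at 0.

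**Figure D5:**
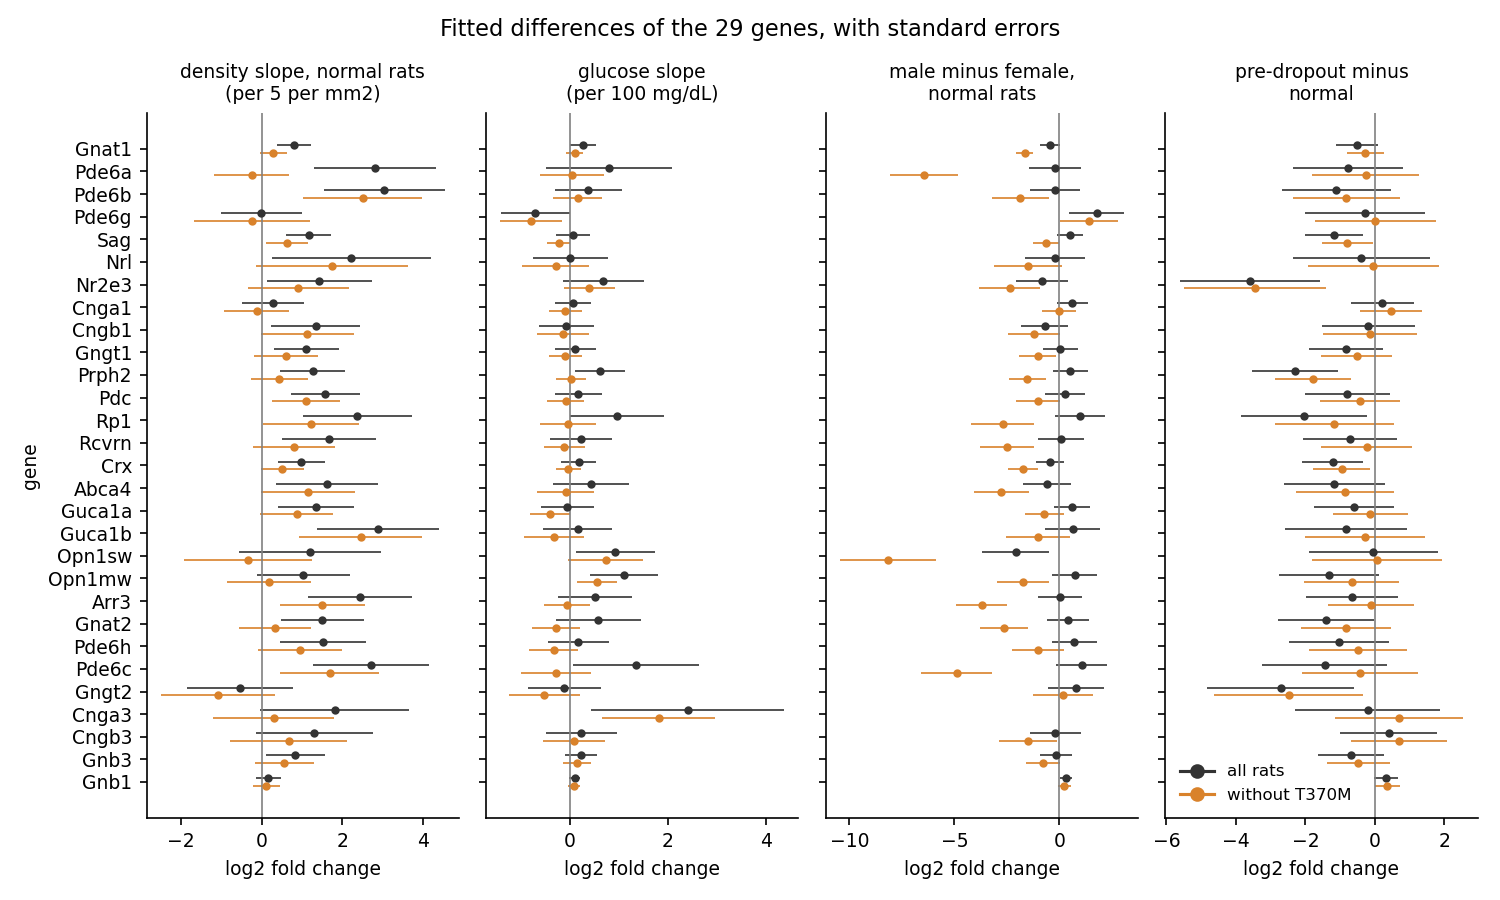
Fitted log2 fold change (points) with standard error (bars) of each of the 29 genes in 4 comparisons, by edgeR with all rats (black) and without rat T370M (orange). Leaving out T370M moved the median of the set from 0.23 to -0.081 for glucose and from 0.18 to -1.51 for males against females, and none of the 29 genes was called in any of the 8 fits. Cnga3 did not pass the filter in the comparison of males with females.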

How the data were processed

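RNA of the washed retinal vasculature of 28 Nile rats was sequenced by the authors, who deposited expected counts and TPM of 18970 genes with mouse symbols. The values are those of a comparative pipeline across species, and counts are estimates that were not scaled between libraries. Groups, sex, density and glucose came from the labels. The genes and marker lists were chosen with earlier results of these data known, so no list is independent evidence. R 4.3.3 ran the main test, the quasi-likelihood test of edgeR 4.0.16, on rounded expected counts after TMM scaling and filterByExpr (minimum count 10). Benjamini-Hochberg adjustment covered all genes tested. A call required adjusted p below 0.05 and, between groups, a difference beyond 2-fold. The alternatives were DESeq2 1.42.0 and its size factors, limma 3.58.1 (voom, and log2(TPM + 1)), no filter, other covariates and fewer rats. EBSeq, the method of the study, was not run. The test was checked on simulated data. Co-variation used log2 CPM with a prior count of 1. Values were named for the 3 rod, 3 cone and 2 shared genes of highest median TPM, for members at an unadjusted p under 0.05 or, with fewer than 4, for the 2 rod and 2 cone genes of smallest p, for paired genes, for genes without a count in at least 14 libraries and for the 5 nearest genes outside the set. Separate rats are replicates here, and intervals and floors cover counting error only. No sequences or coordinates are given.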

Additional observations from a re-analysis of the deposited data

Results flagged for a closer look

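Rat T370M was set apart from its groups by Dixon's ratio, the gap to the next rat over the whole range, in 6 of 12 sets of values examined (3 class sums and the rod to cone ratio in pre-dropout rats, normal males and rats above 200 mg/dL). Chance flags about 1 in 20 groups of normally distributed values. The sums here were not put on a log scale, rod sums spanned an 83.0-fold range and the sets share rats, so that rate need not hold. Among 8 normal males, T370M had 4187 TPM of rod genes against 960 in the next rat, 2610 against 315 TPM of cone genes and 5628 against 1071 TPM of shared genes. Among the 5 rats above 200 mg/dL, the next values were 812 TPM of rod genes, 378 TPM of cone genes and 783 TPM of shared genes. The ratio of rod to cone genes in T370M was 1.60, and it was not set apart in either group. No value of the 4 pre-dropout rats stood apart.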

How the results depend on the processing

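No photoreceptor gene was called in any comparison under any alternative but 1: DESeq2 called 1 gene between males and females (Pde6a). Of 200 refitted values for the genes named by p, 191 kept their sign and 9 did not. Gnat2 in pre-dropout rats was 0.19 by limma-voom, and without T370M 1.318 among males and 1.314 with sex as a covariate. In libraries of at least 8000 genes at equal depth the glucose slopes of Gnat1 and Cnga3 were -0.0045 and -0.44. Pde6c in males was -3.62 by DESeq2, -3.08 by limma-voom, -0.93 by limma on log2(TPM + 1) and -4.90 without T370M. Genes of the set below normal in pre-dropout rats numbered 26, or 9 by limma-voom, 16 by limma on log2(TPM + 1), 3 of 20 among males without T370M and 5 of 29 with sex as a covariate and without T370M, and leaving out each pre-dropout rat gave 21 to 27. Positive glucose slopes numbered 25, or 11 without T370M, and 24 to 28 when another rat above 200 mg/dL was left out. In males of all densities 11 of 26 genes lay above females. Over all genes, edgeR without a filter called 72, 152, 45 and 3 genes for pre-dropout, glucose, density and sex, and DESeq2 5, 22, 0 and 37, against 0, 0, 0 and 3. In that order limma-voom called 2, 3, 1 and 6, and limma on log2(TPM + 1) 0, 0, 0 and 6. The median of all genes in the pre-dropout comparison was -0.13 by edgeR and 0.24 by limma-voom, and the cause was not tested. The rod to cone ratio ran from 1.06 to 6.39 over the settings and the rod to cone rho from 0.88 to 0.89. Both moved by less than the limit set, an SD of 1.82 of the log2 ratio between rats and of 0.117 of rho between genes. The first SD includes rat T420F, at a ratio of 206 on 4 cone counts. It is too wide a limit to show that the ratio was stable. No paired analysis was possible because each rat gave 1 library and belonged to 1 group. The filter on equal depth and the fits without T370M, other than that of the glucose slope, were chosen after seeing the data. Depth limits most the library of 153111 counts, where 3 counts are 19.6 CPM.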
